A study of Homo sapiens with 16 samples.

Results

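The lncRNAs (long noncoding RNAs, transcripts without a known protein product) NORAD, OIP5-AS1, TUG1, KCNQ1OT1, PVT1 and LINC-PINT, whose place in the cell has been studied elsewhere, were followed through a proximity-labelling experiment. They were chosen by name, and all 6 had values in the deposited table, which holds 24878 genes, 7120 of them typed there as lncRNAs. The table types TUG1 as protein-coding and the GENCODE 29 annotation types it as a lncRNA with a bidirectional promoter. The experiment asks which transcripts lie near an enzyme placed in a chosen compartment of HEK293T cells, a human embryonic kidney line. Cells transiently expressed BS2, a bacterial esterase that unmasks the probe AC-2, so that RNA near the enzyme is marked. The marked RNA was joined to biotin by click chemistry and pulled down, and libraries were made after poly(A) capture. Every group received the probe at 50 µM for 3 min, which in transfected cells was 24 h after transfection.

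The pull-down groups were cells expressing BS2 in the cytosol (2 libraries), in the nucleus (3 libraries), in the mitochondria (2 libraries) or, through a NIK3x tag, in the nucleolus (2 libraries), and non-transfected cells that the labels call WT (3 libraries). One input library, RNA that was not pulled down, came from each of the cytosolic, nuclear, mitochondrial and non-transfected populations, and no nucleolar input was analysed here. Non-transfected cells received the probe, and no mock-transfected group was analysed here, so expression of BS2 and the act of transfection cannot be told apart in any comparison with them. The promoter of the constructs and the share of cells transfected are not given in the sources used here. The labels call replicates biological without naming separate cultures, so the p-values speak of library-to-library spread, which may be technical. Levels are in CPM, a gene's reads scaled to a common library size, and cover the whole cell population. In such bulk libraries, RNA marked in fewer cells and less RNA marked in each cell cannot be told apart.

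LncRNAs act where they accumulate. Those held in the nucleus can sit on chromatin, recruit silencing complexes or act on neighbouring genes while being transcribed, whereas those exported to the cytosol can bind proteins or microRNAs there. NORAD is an abundant cytosolic RNA that binds PUM2, a Pumilio protein that represses mRNAs. OIP5-AS1, known in fish and mouse as Cyrano, is largely cytosolic and carries a conserved site that pairs with the microRNA miR-7. TUG1 is found in both nucleus and cytosol. KCNQ1OT1 is an imprinted RNA that stays at its locus and silences neighbouring genes on the paternal allele. PVT1 lies next to the oncogene MYC, and LINC-PINT is a nuclear RNA that interacts with the Polycomb repressive complex.

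Sequencing depth, read from the smallest step between low values, was about 6335000 to 20008000 reads per library, so that 1 read stood for 0.0541 to 0.154 CPM. The nuclear pull-downs stood apart in scale. After the authors' normalization their values summed to 847391 to 914952 CPM, against 997632 to 1104960 CPM in the other 9 pull-downs. The HEK293T markers KRT8, KRT18, VIM, NES and PAX2 were above 1 CPM in every library. Their summed level was 202 to 565 CPM per library, most of it from VIM (171 to 489 CPM). KRT18 stood at 13.9 to 53.8 CPM, KRT8 at 3.5 to 12.7 CPM, NES at 3.68 to 9.11 CPM and PAX2 at 3.15 to 6.0 CPM. The 6 measured markers of other cell types summed to 15.7 to 34.2 CPM, where PTPRC and HBB stayed under 1 CPM in every library and the fibroblast collagens COL1A1 (9.48 to 22.1 CPM) and COL3A1 (3.29 to 14.7 CPM) were present throughout. The nuclear marker MALAT1 averaged 1573 CPM in nuclear, 1382 CPM in mitochondrial, 1108 CPM in nucleolar and 465 CPM in cytosolic pull-downs, against 505 CPM in non-transfected pull-downs. The mitochondrial transcript MT-CO1 averaged 12150 CPM in mitochondrial pull-downs and 1943 to 5041 CPM in the other pull-down groups.

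The stretches below are letter matches, found by search, to elements that bind the protein or the microRNA named above. In GENCODE 29, on GRCh38, NORAD is a single exon of 5339 bases on the minus strand of chromosome 20, from 36045622 to 36050960. Its transcript held 15 copies of the Pumilio response element TGTANATA, where N is any base, searched on the transcript strand only. That is 2.81 copies per kb, against 0.0991 per kb over the longest transcripts of 14994 annotated lncRNA genes, of which 9.21% held at least 1 copy. The first, middle and last copies are shown 5′ to 3′ with 30 bases each, the element in capitals, and lie at chr20:36050182-36050211, chr20:36048477-36048506 and chr20:36046344-36046373.
NORAD, first Pumilio element: tggaaggcctgTGTATATAatatgaaaaag
NORAD, middle Pumilio element: gaataacacttTGTAAATAgcttttaaaaa
NORAD, last Pumilio element: attagcctattTGTAAATAcctttgttata
KCNQ1OT1 held 9 copies over its far greater length (0.0982 per kb), TUG1 held 2, OIP5-AS1 held 1, and no copy was found in the longest transcripts of PVT1 and LINC-PINT.

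OIP5-AS1 lies on the plus strand of chromosome 15, from 41283990 to 41309737, with 10 annotated transcripts of 473 to 8829 bases. Its longest transcript held 3 copies of GTCTTCC, the DNA letters complementary to the seed of miR-7 (bases 2 to 8). KCNQ1OT1 held 6, the other members held none, and 9.03% of annotated lncRNA genes held at least 1 copy. The site below, at chr15:41300570-41300599, stood out among the 3 because a further run of 14 bases complementary to the microRNA lies 4 bases upstream, against runs of 5 and 3 bases at the other copies. The site is shown with the seed match in capitals, and the mature microRNA, taken from RefSeq, with its seed in capitals.
OIP5-AS1, miR-7 site: taagaacaacaaaatcaccaatGTCTTCCa
hsa-miR-7-5p: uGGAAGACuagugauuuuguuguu
No match to either motif says only that these letters are not in the transcript searched.

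Because the libraries were captured by the poly(A) tail, the annotated 3′ ends were also read. The cleavage signal AATAAA was found in the last 60 bases of the longest transcripts of NORAD, OIP5-AS1, TUG1 and LINC-PINT, its variant ATTAAA alone in that of PVT1, and neither in that of KCNQ1OT1. Over all annotated lncRNA genes, 37% held AATAAA in these 60 bases, 10.1% held ATTAAA alone and 52.9% held neither. The members with the highest and the lowest pull-down relative to input below were picked for display, and a link between the signal and that ratio was not tested. The ends of TUG1 (chr22:30979336-30979395, plus strand) and KCNQ1OT1 (chr11:2608328-2608387, minus strand) are shown, with the signal, where found, in capitals.
TUG1, 3′ end: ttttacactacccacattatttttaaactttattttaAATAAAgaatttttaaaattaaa
KCNQ1OT1, 3′ end: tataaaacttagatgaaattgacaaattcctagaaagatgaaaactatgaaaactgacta

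The remaining 4 loci are larger or overlap other genes. TUG1 spans 30969245 to 30979395 on the plus strand of chromosome 22, with 20 transcripts of 375 to 7469 bases. KCNQ1OT1 is annotated as 1 exon of 91667 bases, from 2608328 to 2699994 on the minus strand of chromosome 11, wholly inside the potassium channel gene KCNQ1 on the opposite strand. PVT1 spans 127794533 to 128101253 on the plus strand of chromosome 8, with 25 transcripts of 113 to 1699 bases. LINC-PINT spans 130938963 to 131110176 on the minus strand of chromosome 7, with 22 transcripts of 387 to 3505 bases. Whether the authors' counting used the strand is not given in the sources used here, so reads of a member and of a gene overlapping it cannot be told apart with certainty. Where an exon is shared, KCNQ1 stood at 0.225 to 2.2 CPM in the pull-downs, OIP5, which shares 470 bases with OIP5-AS1, at 9.08 to 23.5 CPM, AC087721.2, which covers OIP5-AS1 on its own strand, at 0 to 4.82 CPM, and MKLN1, which shares 81 bases with LINC-PINT, at 84.1 to 131 CPM. AC016831.6, which covers LINC-PINT on its own strand, stood at 0 to 0.736 CPM in the pull-downs.

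**Figure D1:**
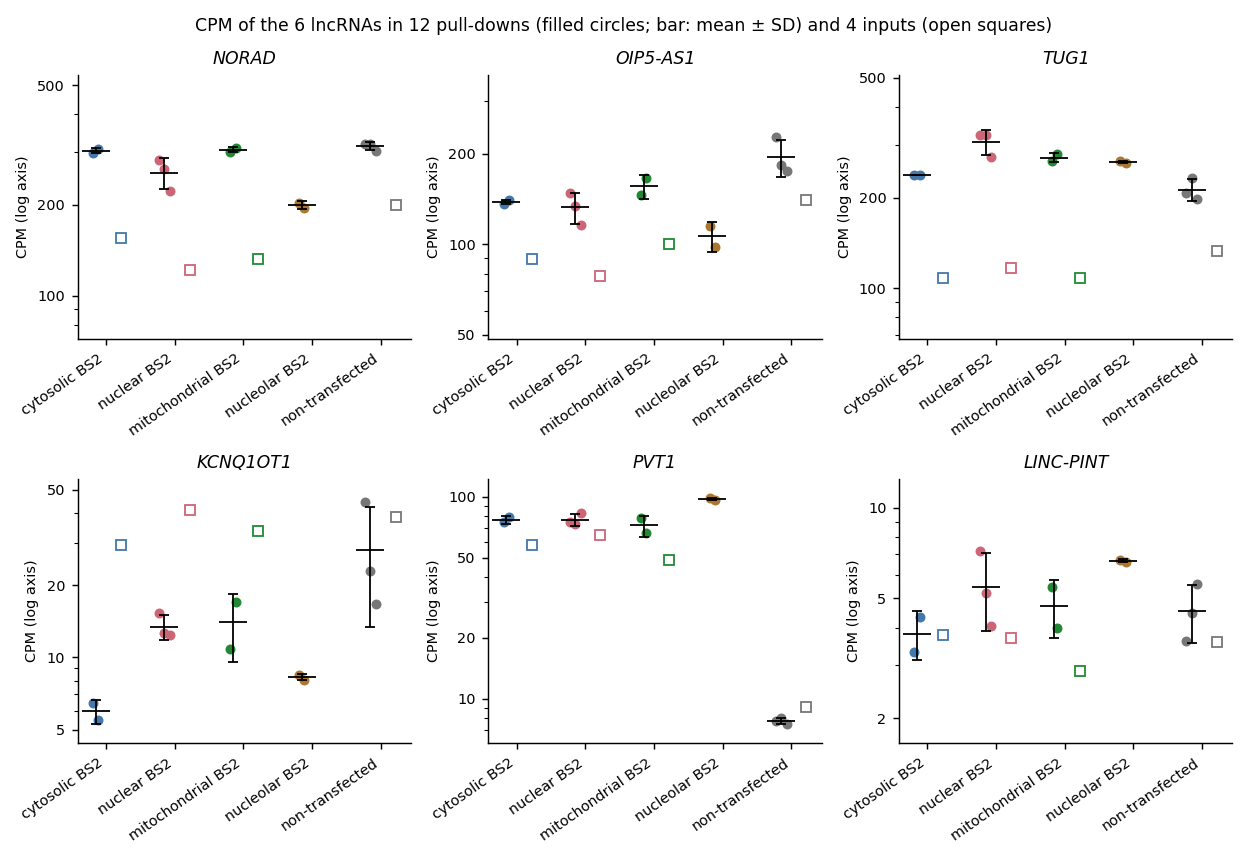
Each panel shows 1 lncRNA, with CPM on a log axis and the 4 BS2 groups left of non-transfected cells. Filled circles are pull-down libraries with their mean and SD, open squares are the input libraries. PVT1 lay at 66 to 98.2 CPM in BS2 pull-downs and 7.52 to 8.01 CPM in non-transfected pull-downs, and KCNQ1OT1 lay below the input of its population in every cytosolic, nuclear and mitochondrial BS2 pull-down.

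Against non-transfected pull-downs, PVT1 rose 8.31-fold to 11.2-fold with all 4 constructs, KCNQ1OT1 and OIP5-AS1 fell with all 4, TUG1 rose with 3 of 4, NORAD fell with the nuclear and nucleolar constructs, and LINC-PINT passed the test with none on the deposited scale. The test was limma on log2(CPM + 1) with Benjamini-Hochberg adjusted p under 0.05 over 16133 genes, and fold changes are on that scale. With cytosolic BS2, 1 member rose and 2 fell, where 51.3% of all genes tested passed, 28.9% as higher and 22.4% as lower. With nuclear BS2, 2 rose and 3 fell, where 66.4% of all genes passed (32.2% higher, 34.2% lower). With mitochondrial BS2, 2 rose and 2 fell, where 55.9% passed (28.9% higher, 27% lower). With nucleolar BS2, 2 rose and 3 fell, where 65.7% passed (30.1% higher, 35.6% lower). A passing test was thus common among all genes, and the 4 comparisons share the same 3 control libraries. PVT1's fold change was above that of 99.7%, 99.6%, 99.7% and 99.5% of genes with cytosolic, nuclear, mitochondrial and nucleolar BS2. KCNQ1OT1's change was above that of 0.4%, 10.8%, 8.28% and 2.5% of genes with the same 4 constructs. The called changes of the other members were less extreme. TUG1's rises were above 75.9%, 70.4% and 67.5% of genes with nuclear, mitochondrial and nucleolar BS2. NORAD's falls stood above 35.4% (nuclear) and 22.5% (nucleolar) of genes. OIP5-AS1's falls stood above 18.1%, 23.1%, 30.4% and 14.7% of genes with cytosolic, nuclear, mitochondrial and nucleolar BS2.

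**Figure D2:**
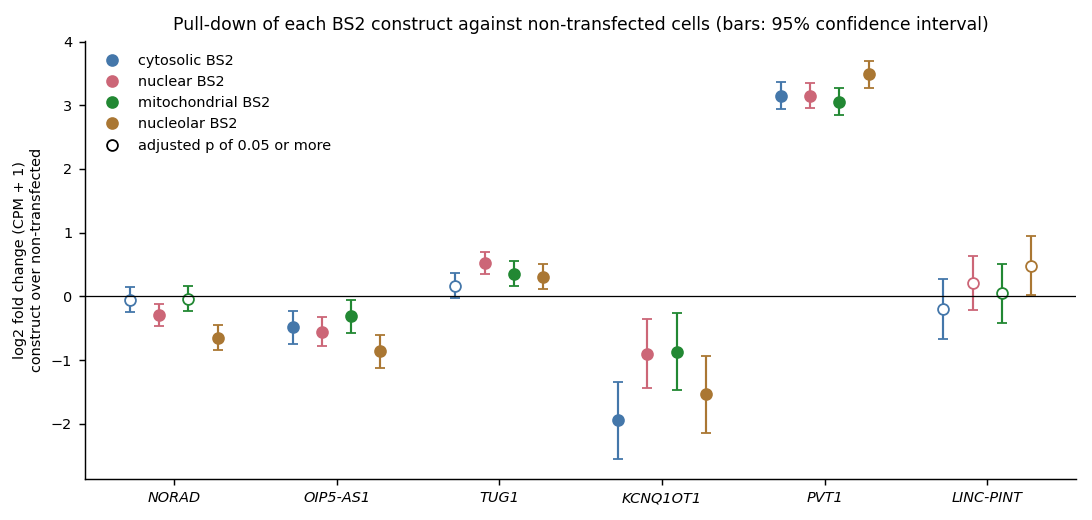
Log2 fold change of CPM + 1 for each lncRNA, pull-down of each BS2 construct over non-transfected pull-down, with 95% confidence intervals from limma. Filled points have adjusted p under 0.05. PVT1 stood at 3.05 to 3.49 and KCNQ1OT1 at -1.95 to -0.87, while the points of the other 4 lncRNAs lay between -0.86 and 0.52.

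NORAD, the cytosolic Pumilio-binding RNA, was lowest in the nucleolar pull-downs. It stood at 299 and 307 CPM with cytosolic BS2, 283, 263 and 223 CPM with nuclear BS2, 301 and 310.2 CPM with mitochondrial BS2, and 204 and 195 CPM with nucleolar BS2, against 319, 319 and 302 CPM in non-transfected pull-downs. The cytosolic and mitochondrial libraries overlapped the non-transfected ones, and all nuclear and nucleolar libraries lay below them. How many of all genes show no overlap between such small groups was not computed, here or in the paragraphs below. NORAD fell with nucleolar BS2 (log2 fold change -0.65 ± 0.091 SE, adjusted p = 1.61e-05) and with nuclear BS2 (-0.30 ± 0.082, adjusted p = 0.00463). With cytosolic BS2 the value was -0.05, with a 95% interval of -0.24 to 0.14, and with mitochondrial BS2 -0.04, from -0.23 to 0.16. The nuclear result depends on scale: with every library rescaled to a common total it was -0.02, and with quantile normalization -0.01, neither past the threshold, while the nucleolar fall passed under every setting tried. NORAD was also lower in the transfected inputs, at 155, 122 and 133 CPM with cytosolic, nuclear and mitochondrial BS2. The non-transfected input stood at 200.4 CPM, with 1 library for each population.

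OIP5-AS1, the miR-7-binding RNA, was highest in the non-transfected pull-downs. It stood at 137 and 140.1 CPM with cytosolic BS2, 148, 134 and 116 CPM with nuclear BS2, 146 and 166 CPM with mitochondrial BS2, and 115 and 97.9 CPM with nucleolar BS2, against 227, 184 and 176 CPM in non-transfected pull-downs. Every BS2 library lay below every non-transfected library. The falls were -0.49 ± 0.122 (adjusted p = 0.00384) with cytosolic, -0.55 ± 0.109 (adjusted p = 3.87e-04) with nuclear, -0.32 ± 0.122 (adjusted p = 0.0384) with mitochondrial and -0.86 ± 0.122 (adjusted p = 1.70e-05) with nucleolar BS2. With a common total the nuclear fall was -0.27 and still passed (adjusted p = 0.0374). The mitochondrial call was lost without non-transfected replicate 1, the highest library, where the change was -0.20 (adjusted p = 0.169), and also without mitochondrial replicate 1 or without the filter on low values. In the inputs OIP5-AS1 was likewise lower in transfected cells, at 89.6, 78.5 and 100.3 CPM with cytosolic, nuclear and mitochondrial BS2 against 141 CPM in non-transfected cells, 1 library each. Its antisense neighbour OIP5, which encodes a centromere protein, also fell with all 4 constructs, by 0.42 to 1.2 on the log2 scale (adjusted p up to 0.0391), and the part of shared reads in this was not tested.

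TUG1 stood above the non-transfected range in every BS2 library. It was at 239 and 238 CPM with cytosolic BS2, 323, 322 and 272 CPM with nuclear BS2, 265 and 278 CPM with mitochondrial BS2, and 265 and 261 CPM with nucleolar BS2, against 207, 232 and 198 CPM in non-transfected pull-downs. It was the 1 member apart from PVT1 to rise, by 0.52 ± 0.082 with nuclear BS2 (adjusted p = 4.68e-05), 0.36 ± 0.092 with mitochondrial BS2 (adjusted p = 0.00387) and 0.31 ± 0.092 with nucleolar BS2 (adjusted p = 0.00812). The cytosolic value of 0.17 did not pass (adjusted p = 0.136) and was above that of 59.6% of genes. Its libraries did not overlap the non-transfected ones, which with so few libraries is no test. In contrast, TUG1 was not higher in the transfected inputs, at 108, 117 and 108 CPM with cytosolic, nuclear and mitochondrial BS2 against 133 CPM in non-transfected input. The nucleolar call was lost without nucleolar replicate 1 (adjusted p = 0.0526), and the nuclear rise was 0.80 with a common total (adjusted p = 5.24e-07).

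KCNQ1OT1, the imprinted silencing RNA, was both lower and more variable. It stood at 6.45 and 5.48 CPM with cytosolic BS2, 15.3, 12.6 and 12.4 CPM with nuclear BS2, 10.9 and 17.1 CPM with mitochondrial BS2, and 8.42 and 8.08 CPM with nucleolar BS2, against 44.4, 22.9 and 16.7 CPM in non-transfected pull-downs. Non-transfected replicate 1 was far above the other two, and 1 mitochondrial library overlapped the non-transfected range. The largest fall was with cytosolic BS2 (-1.95 ± 0.284, adjusted p = 4.75e-05), followed by nucleolar (-1.53 ± 0.284, adjusted p = 2.17e-04), nuclear (-0.90 ± 0.254, adjusted p = 0.00575) and mitochondrial BS2 (-0.87 ± 0.284, adjusted p = 0.0169). Without non-transfected replicate 1 the nuclear change was -0.52 and still passed (adjusted p = 0.0273), and the mitochondrial change was -0.49 and did not (adjusted p = 0.0616). The mitochondrial call was also lost without mitochondrial replicate 1, without the filter and with those groups fitted alone. The nuclear change with a common total just missed the threshold (adjusted p = 0.0514). Its input levels were 29.4, 41.1 and 33.6 CPM with cytosolic, nuclear and mitochondrial BS2, against 38.5 CPM in non-transfected cells, where the nuclear population was the highest and the cytosolic one the lowest. KCNQ1, inside which it lies, passed the test with no construct.

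PVT1, the neighbour of MYC, differed most among the 6 members, in the inputs as well as in the pull-downs. Its pull-down levels were 74.7 and 79.5 CPM with cytosolic BS2, 75.0, 73.0 and 83.4 CPM with nuclear BS2, 78.2 and 66 CPM with mitochondrial BS2, and 98.2 and 96.6 CPM with nucleolar BS2, against 7.78, 8.01 and 7.52 CPM in non-transfected pull-downs. Its input levels were 57.5, 64.9 and 48.4 CPM with cytosolic, nuclear and mitochondrial BS2, against 9.12 CPM in non-transfected cells. Transfected and non-transfected libraries did not overlap in either fraction. The rises in pull-down were 3.15 ± 0.10 with cytosolic, 3.15 ± 0.089 with nuclear, 3.05 ± 0.10 with mitochondrial and 3.49 ± 0.10 with nucleolar BS2 (adjusted p = 3.88e-13 to 4.33e-12). As ratios of mean CPM, PVT1 was 9.92, 9.92 and 9.28 times the non-transfected level in the cytosolic, nuclear and mitochondrial pull-downs, and 6.30, 7.11 and 5.31 times in the corresponding inputs. MYC, which encodes a transcription factor, moved the other way: it averaged 49.8, 32.4, 41.0 and 27.8 CPM in cytosolic, nuclear, mitochondrial and nucleolar pull-downs against 165 CPM in non-transfected pull-downs, and changed by -1.71, -2.31, -1.98 and -2.53 on the log2 scale (adjusted p up to 1.82e-09). In the inputs MYC stood at 105 to 131 CPM with BS2 against 185 CPM without.

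As deposited, LINC-PINT passed with no construct against non-transfected cells. It stood at 3.32 and 4.32 CPM with cytosolic BS2, 7.16, 5.22 and 4.04 CPM with nuclear BS2, 5.45 and 3.99 CPM with mitochondrial BS2, and 6.72 and 6.62 CPM with nucleolar BS2, against 3.60, 4.47 and 5.57 CPM in non-transfected pull-downs. The nucleolar libraries lay above the non-transfected range and the others overlapped it. The nucleolar change was 0.48, with a 95% interval of 0.02 to 0.95 (adjusted p = 0.0644), and the cytosolic change was -0.19, from -0.66 to 0.27. The nucleolar change passed with a common total (0.55, adjusted p = 0.0309), with median-of-ratios scaling (0.57, adjusted p = 0.0288) and without non-transfected replicate 3 (0.61, adjusted p = 0.0344), and the nuclear change passed with a common total (0.44, adjusted p = 0.0466). With intervals this wide, changes of modest size were not detectable at this level.

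Between constructs, the order of levels differed from member to member, and many neighbouring groups in these orders could not be separated. For NORAD the mean fell in the order non-transfected, mitochondrial, cytosolic, nuclear and nucleolar, and the last 2 steps passed the test (nuclear against cytosolic -0.25, adjusted p = 0.0474, and nucleolar against nuclear -0.35, adjusted p = 0.00796). For TUG1 the order was nuclear, mitochondrial, nucleolar, cytosolic and non-transfected, with no step between neighbours past the threshold. For KCNQ1OT1 the order was non-transfected, mitochondrial, nuclear, nucleolar and cytosolic, and only the first step passed. PVT1 was highest with nucleolar BS2, where it exceeded nuclear BS2 by 0.34 (adjusted p = 0.0172), and for LINC-PINT and OIP5-AS1 the order also began or ended with the nucleolar group.

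The nucleus against the cytosol is the contrast closest to the known locations. TUG1 rose by 0.35 ± 0.092 (adjusted p = 0.00873) and KCNQ1OT1 by 1.05 ± 0.284 (adjusted p = 0.0112) in nuclear relative to cytosolic pull-downs, NORAD fell by 0.25 ± 0.091 (adjusted p = 0.0474), and 33.4% of all genes passed (10.2% higher, 23.2% lower), with a median change of -0.12. LINC-PINT had 0.41, OIP5-AS1 -0.07 and PVT1 -0.0012 on the same scale, none of them past the threshold as deposited, and LINC-PINT passed with a common total (0.61, adjusted p = 0.0456). In mitochondrial against cytosolic pull-downs KCNQ1OT1 had a change of similar size (1.08 ± 0.311), which did not pass (adjusted p = 0.123). In mitochondrial against nuclear pull-downs its change was 0.03 (adjusted p = 0.953). A value of this size over cytosolic BS2 was thus not particular to nuclear BS2. The KCNQ1OT1 libraries, at 12.4 to 15.3 CPM with nuclear and 5.48 to 6.45 CPM with cytosolic BS2, did not overlap, nor did those of TUG1 and NORAD. The share of all genes without overlap was not computed, for this or any other pair of groups. Scaling matters here: with a common total the median of all genes was 0.10, and NORAD had -0.0031 and was not called, whereas with quantile normalization NORAD turned to 0.07. The NORAD call was kept in 3 of 13 settings and was lost, among others, without either cytosolic library and without nuclear replicate 2 or 3. TUG1 and KCNQ1OT1 kept their direction and passed under all 3 other scalings, where TUG1 was 0.60 with a common total and 0.69 with quantile normalization. The TUG1 call was lost without either cytosolic library and the KCNQ1OT1 call without cytosolic replicate 2 (adjusted p up to 0.0947). The share of called genes that were higher was 30.4% as deposited, 49.1% with median-of-ratios scaling, 51.5% with quantile normalization and 76.3% with a common total.

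**Figure D3:**
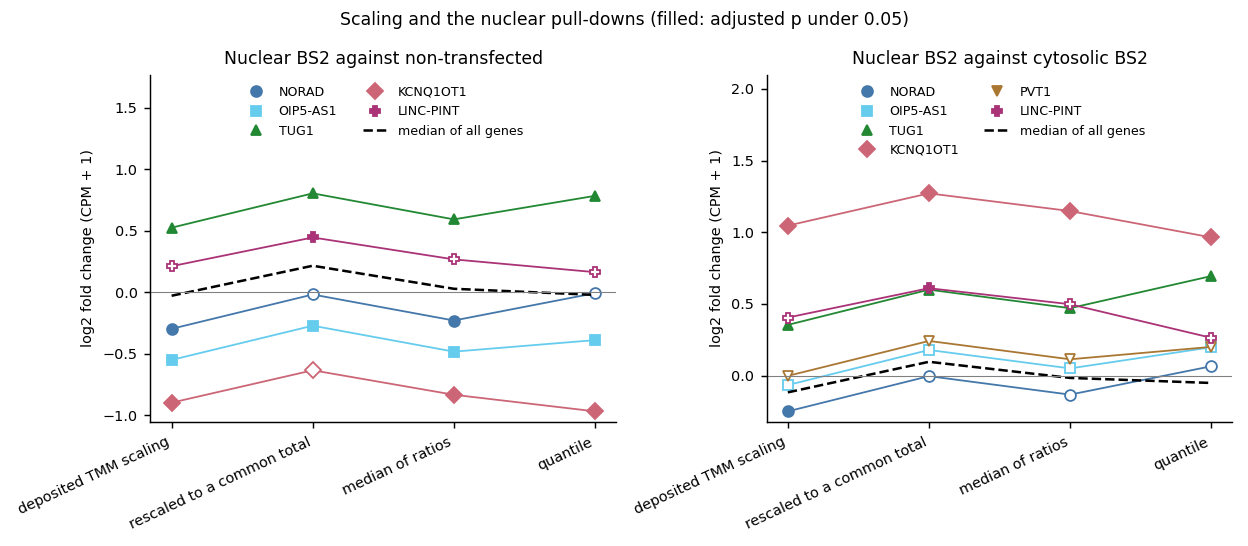
Log2 fold change of CPM + 1 under the deposited scaling and 3 others, for nuclear BS2 against non-transfected cells (left, without PVT1, which lies above the axis) and against cytosolic BS2 (right). Filled symbols have adjusted p under 0.05 and the dashed line is the median of all genes. TUG1 stayed above the median of all genes in both panels, and NORAD was not called with a common total or with quantile normalization in either panel.

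Between mitochondrial and cytosolic pull-downs no member passed with limma (0 of 6, where 0.831% of all genes did, 0.632% higher and 0.198% lower), and 1 member, KCNQ1OT1 (1.08, adjusted p = 0.123), had an unadjusted p under 0.05. Between nucleolar and cytosolic pull-downs, where 35% of all genes passed (11.2% higher, 23.9% lower), NORAD (-0.60 ± 0.10, adjusted p = 4.08e-04) and OIP5-AS1 (-0.38, adjusted p = 0.0397) fell, and PVT1 (0.33, adjusted p = 0.0278) and LINC-PINT (0.68, adjusted p = 0.0396) rose. Only the NORAD call of these 4 remained under every setting tried. The PVT1 and LINC-PINT calls were lost without any 1 of the 4 libraries, and the LINC-PINT call also with quantile normalization and without the filter. The OIP5-AS1 call was lost under all 3 other scalings, without the filter, without either cytosolic library and without nucleolar replicate 2. With median-of-ratios scaling TUG1 also passed (0.29, adjusted p = 0.0396). Between nucleolar and nuclear pull-downs NORAD fell and PVT1 rose, where 34.5% of all genes passed (16.6% higher, 17.9% lower). The NORAD call was lost without nucleolar replicate 2, and the PVT1 call without either nucleolar library, without nuclear replicate 2 and with a common total or quantile normalization. Both calls were also lost with those groups fitted alone. With a common total NORAD was -0.55, and OIP5-AS1 (-0.51, adjusted p = 0.00378), TUG1 (-0.41, adjusted p = 0.00166) and KCNQ1OT1 (-0.82, adjusted p = 0.0405) also passed. With quantile normalization NORAD was -0.58, and OIP5-AS1 (-0.44) and TUG1 (-0.46) passed. OIP5-AS1 and TUG1 passed as well without nuclear replicate 3. Between nucleolar and mitochondrial pull-downs NORAD fell by 0.61 and OIP5-AS1 by 0.55, and PVT1 rose by 0.43, where 22.8% passed (7.94% higher, 14.9% lower). Of these the NORAD call held under every setting, and the others were lost without mitochondrial replicate 2 or nucleolar replicate 2, and for PVT1 also without nucleolar replicate 1. Between mitochondrial and nuclear pull-downs NORAD alone passed, at 0.26 (adjusted p = 0.0442), where 27.5% of all genes did (17.7% higher, 9.84% lower), and its value was -0.0007 with a common total and -0.019 with quantile normalization. That call was also lost without either mitochondrial library and without nuclear replicate 2 or 3. Median-of-ratios scaling, no filter, those groups fitted alone and replicate numbers as a block each removed it too. TUG1 passed in this pair with a common total (-0.43, adjusted p = 0.0027), with quantile normalization (-0.47, adjusted p = 0.00217) and without nuclear replicate 3 (-0.25, adjusted p = 0.0351), and PVT1 with a common total (-0.36, adjusted p = 0.0145).

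Pull-down against input shows how each RNA was represented in the marked and enriched fraction of the same cells, averaged over the 4 populations that had an input. TUG1 rose by 1.12 ± 0.10 (adjusted p = 3.95e-07), NORAD by 0.96 ± 0.086 (adjusted p = 4.00e-07) and OIP5-AS1 by 0.61 ± 0.085 (adjusted p = 1.23e-05), while KCNQ1OT1 fell by 1.35 ± 0.232 (adjusted p = 9.48e-05). PVT1 (0.24, adjusted p = 0.0518) and LINC-PINT (0.31, adjusted p = 0.0910) did not pass, and 65.8% of 16510 genes did (36.5% higher, 29.3% lower). The 3 rises and 1 fall among 6 members are a share of passing tests close to that of all genes. NORAD was at 223 to 319 CPM in all 10 pull-downs and 122 to 200.4 CPM in the 4 inputs, and TUG1 at 198 to 323 CPM against 108 to 133 CPM, without overlap. These 4 calls held under every scaling and with each library left out. PVT1 passed without the non-transfected input (0.40, adjusted p = 7.03e-04) and without non-transfected pull-down replicate 1 or 3 (adjusted p up to 0.0485).

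The ratio of pull-down to input was above 1 for NORAD, OIP5-AS1, TUG1 and LINC-PINT in non-transfected cells as well, which carry no BS2. For NORAD the mean ratio was 1.95 with cytosolic, 2.10 with nuclear and 2.31 with mitochondrial BS2, against 1.56 in non-transfected cells. For TUG1 it was 2.21, 2.62 and 2.51 with cytosolic, nuclear and mitochondrial BS2, against 1.59 in non-transfected cells. For KCNQ1OT1 it was 0.203, 0.326 and 0.415 with cytosolic, nuclear and mitochondrial BS2, against 0.727 in non-transfected cells, where the 3 libraries spread from 0.434 to 1.15. For PVT1 it was 1.34, 1.19 and 1.49 with cytosolic, nuclear and mitochondrial BS2, against 0.852 in non-transfected cells. OIP5-AS1 had mean ratios of 1.544, 1.692 and 1.556 with cytosolic, nuclear and mitochondrial BS2, against 1.387 in non-transfected cells. Its non-transfected libraries spread from 1.247 to 1.611 and overlapped those of all 3 constructs. LINC-PINT had 1.012, 1.484 and 1.639 with cytosolic, nuclear and mitochondrial BS2, against 1.266 in non-transfected cells. Each ratio rests on 1 input library.

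**Figure D4:**
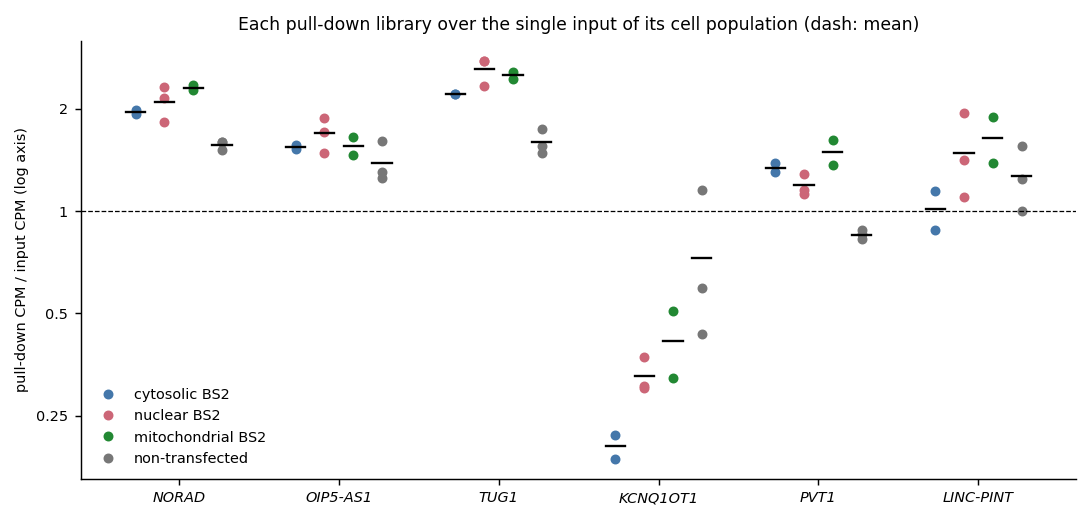
CPM of each pull-down library divided by the CPM of the single input of its population, on a log axis, with the mean as a dash and equality as a broken line. All NORAD, TUG1 and PVT1 ratios with BS2 lay above the non-transfected ones, and all KCNQ1OT1 ratios with BS2 lay at 0.508 or less.

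The input-corrected difference, pull-down minus input with BS2 less the same in non-transfected cells, was tested for 3 constructs with the unreplicated inputs assumed to vary like the pull-downs. TUG1 was higher with nuclear BS2 (0.71 ± 0.164, adjusted p = 0.0102, where 16.6% of 16693 genes passed, 7.63% higher and 8.94% lower) and with mitochondrial BS2 (0.66 ± 0.169, adjusted p = 0.0285, where 9.55% of genes passed, 6.16% higher and 3.4% lower). PVT1 was higher with mitochondrial BS2 (0.77 ± 0.184, adjusted p = 0.0223) and, at the edge of the threshold, with cytosolic BS2 (0.62 ± 0.184, adjusted p = 0.04999, where 8.51% of genes passed, 5.74% higher and 2.77% lower). NORAD had 0.32, 0.41 and 0.56 with cytosolic, nuclear and mitochondrial BS2, none past the threshold as deposited (lowest adjusted p = 0.0504), although with nuclear BS2 it passed under the 3 other scalings, at 0.48 to 0.62, and with mitochondrial BS2 with a common total (0.49, adjusted p = 0.047) and with quantile normalization (0.49, adjusted p = 0.0415). PVT1 with nuclear BS2 (0.45, adjusted p = 0.0998) passed with a common total (0.64, adjusted p = 0.0213). OIP5-AS1, which fell in every pull-down, had 0.16, 0.28 and 0.17, and KCNQ1OT1 had -1.57, -0.99 and -0.68, with intervals as wide as -2.70 to -0.43. The nuclear TUG1 result passed under every setting, and the cytosolic PVT1 result under 2 of 11, being lost without any 1 of its 5 pull-down libraries. The mitochondrial TUG1 result was lost without either mitochondrial replicate and without non-transfected replicate 1 or 3, and the mitochondrial PVT1 result without mitochondrial replicate 1 and with quantile normalization.

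Compared per kb of transcript, the members cover a wide range of levels. In non-transfected pull-downs, NORAD had 58.7 CPM per kb, TUG1 28.4, OIP5-AS1 22.1, PVT1 4.58, LINC-PINT 1.3 and KCNQ1OT1 0.305, each over the length of its longest annotated transcript. With nuclear BS2, TUG1 had 41.0 CPM per kb, NORAD 47.9 and PVT1 45.4. The forms expressed are not known, and over the median transcript length OIP5-AS1 in non-transfected cells would have 245 CPM per kb in place of 22.1.

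The genes whose pattern over the 12 pull-downs was most like a member's were found by the root mean square difference of log2(CPM + 1), each gene centred on its own mean, among 11337 genes with a mean of at least 5 CPM. For NORAD they were PUM2 (0.0621), which encodes a protein that binds it, RAB31 (0.0639) and ATP6V1A (0.0662), against a median of 0.346 over all genes compared. PUM2 averaged 188, 161, 189 and 121 CPM in cytosolic, nuclear, mitochondrial and nucleolar pull-downs, against 179 CPM in non-transfected pull-downs, and changed by -0.56 with nucleolar BS2. Because PUM2 was picked for its likeness to NORAD over these same libraries, its fall is no separate evidence. All points share the same 12 libraries and their scaling. For PVT1 the most similar genes were EFCAB6 (0.183), WDR78 (0.183) and TYW1B (0.187), against a median of 1.43. For TUG1 they were ZKSCAN1, CAPRIN2 and RGMB (0.0646 to 0.0895), for OIP5-AS1 EXTL2, NUDT3 and SLC38A1 (0.0907 to 0.103), for LINC-PINT TUBE1, POU4F1 and ZFC3H1 (0.147 to 0.164), and for KCNQ1OT1 LCAT, ARHGEF17 and ZC3H10 (0.281 to 0.393).

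**Figure D5:**
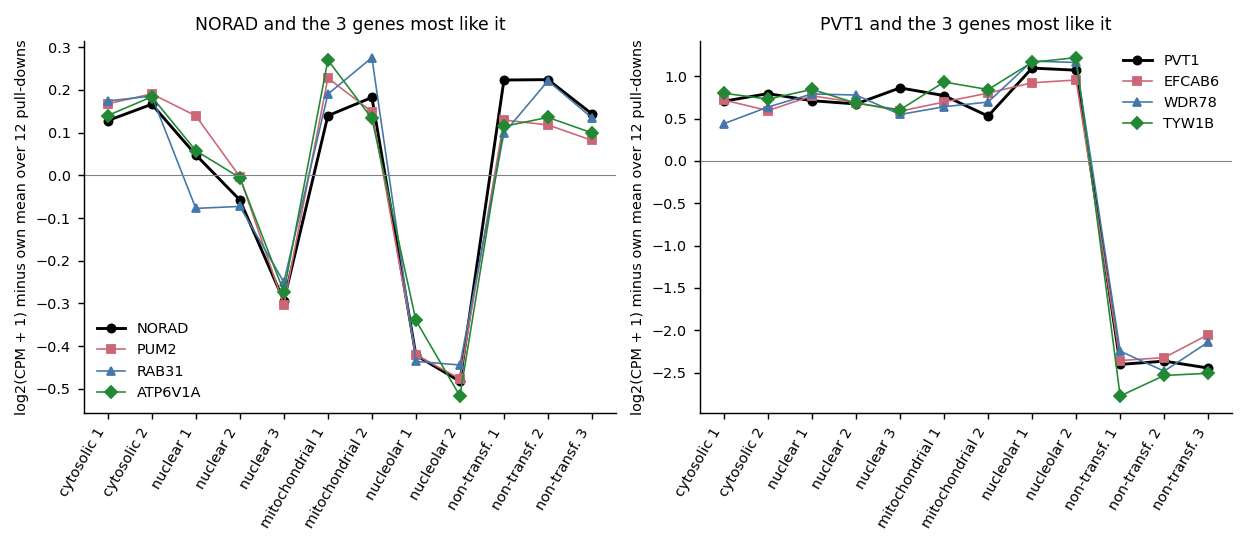
Log2(CPM + 1) minus each gene's own mean over the 12 pull-downs, for NORAD (left) and PVT1 (right) with the 3 genes most like each, with BS2 libraries left of non-transfected ones. Points are single libraries, and lines join them for reading only. NORAD and its 3 genes were lowest in both nucleolar libraries and in nuclear replicate 3, and PVT1 and its 3 genes were low in all 3 non-transfected libraries.

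Other lncRNAs of known location give a setting for the members, with the 6 members left out of the counts. In nuclear against cytosolic pull-downs, 5 of 14 tested nuclear lncRNAs rose and none fell, with a median of 0.23, among them MALAT1 (1.75), NEAT1 (2.05), which builds paraspeckles, GABPB1-AS1 (2.16) and FTX (0.51). Of 16 tested cytosolic lncRNAs, 4 rose and 6 fell, with a median of -0.24, and among these DANCR (-0.62) and SNHG5 (-0.50) fell while GAS5 (0.92), a host of small nucleolar RNAs, rose. All genes had a median of -0.12, and 10.2% of them rose and 23.2% fell. In pull-down against input, 11 of 14 nuclear lncRNAs rose and 2 fell (median 0.55), and 2 of 16 cytosolic lncRNAs rose and 7 fell (median -0.19), beside a median of 0.08 for all genes, of which 36.5% rose and 29.3% fell. NORAD and OIP5-AS1, both cytosolic, rose there, and KCNQ1OT1, nuclear, fell. Of 18 tested partners and neighbours of the members, none rose and 5 fell in nuclear against cytosolic pull-downs (median -0.21), and 8 rose and 8 fell in pull-down against input (median 0.10). The lists were assembled by hand with earlier results of these data known, so they are no independent reference for the members. No test of a list as a whole was made.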

How the data were processed

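RNA sequencing of 16 HEK293T libraries, 12 pull-downs and 4 inputs, was read from a table that the authors deposited as log2 values of CPM, filtered and TMM normalized per the labels. The submitters' processing notes name GRCh38, Salmon 1.4.0, STAR 2.7.9a and limma, without saying what each was used for. The lowest value in every library, the log2 of 0.166, was taken as an added constant and removed to give CPM. Of 39823 entries, 14906 held no value and 39 names were repeated with identical values. Low values (under 2 CPM) lay on whole multiples of 1 read (tolerance 0.01) in 80.0% to 90.3% of cases, too few for a count test. The design had planned for plain CPM, and the test is unchanged by this.

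The filter kept a gene that reached 1 CPM in 2 or more libraries, and log2(CPM + 1), a pseudocount of 1, was fitted with limma 3.58.1 in R 4.3.3 (trend, Benjamini-Hochberg over all genes), with 1 spread shared by all groups. This gave 16133 genes for pull-downs, 16510 for pull-down against input with population as covariate, and 16693 for input-corrected differences. On data simulated with the fit's own normal spread and few changed genes, the fit recovered the changes put in. That checks the code, and not the scaling or the spread of the real libraries. The changes put in were larger than most of those of the members, and genes of low level were not given any. The power for smaller changes or lower levels was thus not shown. Annotation, lengths and lncRNA sequences come from GENCODE 29 (GRCh38) and the microRNA from RefSeq (GRCh38.p14). Summaries and plots used Python 3.11.15, pandas 2.3.3 and matplotlib 3.10.9. The 6 members were always named, with the 3 genes most like each and up to 4 genes per list (nuclear lncRNAs, cytosolic lncRNAs, partners and neighbours). Members, lists and tests were chosen with earlier results of these data known. Alternatives were 3 other scalings, a pseudocount of 0.5, the deposited log2 values as they are, no filter, fits of 2 groups alone, replicate numbers as a block, and each library left out.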

Additional observations from a re-analysis of the deposited data

Results flagged for a closer look

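In 4 cases the step from input to pull-down differed between a BS2 population and non-transfected cells by a test of that difference (limma, adjusted p under 0.05). For TUG1 it was larger by 0.71 on the log2 scale with nuclear BS2 and by 0.66 with mitochondrial BS2. For PVT1 it was larger by 0.77 with mitochondrial BS2 and by 0.62 with cytosolic BS2. All TUG1 pull-downs with these constructs had a higher ratio to input (2.33 to 2.77) than the 3 non-transfected ones (1.48 to 1.74), and so had the PVT1 pull-downs (1.3 to 1.62, against 0.825 to 0.879). NORAD was not flagged, and its ratios with BS2 (1.825 to 2.34) also lay above the non-transfected ones (1.507 to 1.594). The share of all genes with ratios separated in this way was not computed. Each of these ratios rests on 1 input per population, and the part of that single library was not tested.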

How the results depend on the processing

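Of 84 values (6 members in 14 comparisons), 38 passed the threshold and 19 of these passed under every setting run, including PVT1 against non-transfected with all 4 constructs, the falls of NORAD in nucleolar against non-transfected, cytosolic and mitochondrial pull-downs, and all 4 pull-down against input calls. A pseudocount of 0.5 and the deposited log2 values as they are changed no call. The number of members called changed by more than 1.5 times as follows. With a common total it was 4 for nucleolar against nuclear, 2 for mitochondrial against nuclear, 3 for the input-corrected nuclear and 0 for the input-corrected cytosolic difference. With median-of-ratios scaling it was 0 for mitochondrial against nuclear, 0 for the input-corrected cytosolic and 2 for the input-corrected nuclear difference. With quantile normalization it was 2 for nucleolar against cytosolic, 0 for the input-corrected cytosolic and 2 for the input-corrected nuclear difference. Without the filter it was 2 for mitochondrial against non-transfected, 2 for nucleolar against cytosolic, 0 for mitochondrial against nuclear and 0 for the input-corrected cytosolic difference. In fits of 2 groups alone it was 1 for nucleolar against nuclear and 0 for mitochondrial against nuclear.

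Leaving out 1 library at a time, the number called ranged from 2 to 4 for mitochondrial against non-transfected, 0 to 3 for nuclear against cytosolic, 1 to 2 for nucleolar against cytosolic, 0 to 4 for nucleolar against nuclear, 0 to 1 for mitochondrial against nuclear and 1 to 3 for nucleolar against mitochondrial. For the input-corrected differences it ranged from 0 to 1 (cytosolic), 1 to 2 (nuclear) and 0 to 2 (mitochondrial). Values not past the threshold changed sign in these runs: KCNQ1OT1 (-0.27 to 0.33), LINC-PINT (-0.35 to 0.022) and PVT1 (-0.22 to 0.023) in mitochondrial against nuclear, LINC-PINT in mitochondrial against non-transfected (-0.14 to 0.23) and input-corrected nuclear (-0.0012 to 0.35), NORAD (-0.0077 to 0.035) and PVT1 (-0.22 to 0.021) in mitochondrial against cytosolic, and OIP5-AS1 (-0.15 to 0.027) and PVT1 (-0.058 to 0.044) in nuclear against cytosolic.

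Scaling also turned signs. In nuclear against cytosolic, OIP5-AS1 and PVT1 became 0.18 and 0.24 with a common total, 0.051 and 0.11 with median of ratios, and 0.20 and 0.20 with quantiles, where NORAD became 0.066. In mitochondrial against nuclear, NORAD, OIP5-AS1 and KCNQ1OT1 became -0.0007, -0.026 and -0.22 with a common total, KCNQ1OT1 -0.034 with median of ratios and NORAD -0.019 with quantiles. In mitochondrial against cytosolic, NORAD became -0.0038 with a common total. In nucleolar against mitochondrial, TUG1 became 0.015 with a common total, 0.057 with median of ratios and 0.0081 with quantiles. The cause was not tested.

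Deviations of same-numbered pull-downs from their group means had correlations of -0.17 to 0.16 over 21 pairs. Between groups of 2 libraries both pairs give the same value by construction. The codes in the cytosolic titles also differ from their replicate numbers. A pairing of libraries was thus not found, and this check cannot exclude one. With the replicate block, members called were 1 for mitochondrial against cytosolic and 5 for nucleolar against nuclear, OIP5-AS1 became 0.017 in nuclear against cytosolic and KCNQ1OT1 -0.15 in mitochondrial against nuclear. The block raised the count over all genes to 479 from 134 for mitochondrial against cytosolic. That for mitochondrial against nuclear was 1519 in the fit of those groups alone, against 4437, and that for nuclear against cytosolic 3408 with quantiles, against 5387. The share of called genes that were higher moved by over 10 points with a common total in nuclear against non-transfected (66.2%, from 48.5%), nucleolar against nuclear (23.5%, from 48.1%), mitochondrial against nuclear (15.4%, from 64.2%), mitochondrial against cytosolic (64.4%, from 76.1%), nucleolar against mitochondrial (45.9%, from 34.8%) and input-corrected nuclear (73.0%, from 46.0%). With median of ratios it moved so in nucleolar against cytosolic (54.7%, from 31.9%), mitochondrial against nuclear (51.7%), nucleolar against mitochondrial (55.7%) and input-corrected cytosolic (56.2%, from 67.4%), and with quantiles in nucleolar against cytosolic (46.9%), mitochondrial against nuclear (50.4%), nucleolar against mitochondrial (46.7%) and input-corrected mitochondrial (54.3%, from 64.5%). Nuclear against cytosolic is given with its result above. Single inputs and 2 libraries per group limit all comparisons, and depth limits LINC-PINT most.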

Other observations

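Another lncRNA of the cytosolic list, SNHG12, a host of small nucleolar RNAs, was also higher in the pull-downs of all 4 BS2 constructs, and in the 3 BS2 inputs, than in non-transfected cells. It averaged 37.3, 41.6, 34.9 and 37.4 CPM in cytosolic, nuclear, mitochondrial and nucleolar pull-downs, against 6.53 CPM in non-transfected pull-downs. Its inputs stood at 38.4, 38.6 and 27.0 CPM with cytosolic, nuclear and mitochondrial BS2, against 5.93 CPM in non-transfected cells. It was singled out after its values were seen.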
